A study of Mus musculus with 7 samples.

Results

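The 6 genes described here encode enzymes that bring galactose into the pool of UDP-glucose and draw on that pool: Galm, Galk1, Galt, Ugp2, Ugdh and Uxs1. They are 6 of the 23930 genes of the deposited table, found by their exact symbol. The set was selected from differences between these same normocapnia and hypercapnia libraries, so the values below are a description, carry no test and support nothing about the set. The study asked how a long rise in CO2 alters satellite cells, the muscle stem cells that rebuild fibers after injury. RNA was measured in Pax7-GFP cells sorted from mouse muscle, in 3 normocapnia (NC1 to NC3) and 4 hypercapnia (HC1 to HC4) libraries.

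All mice carried an inducible Pax7-GFP reporter, in which a tamoxifen-activated Cre driven by Pax7 removes a loxP-flanked stop, and all received tamoxifen. Exposure began at 12 weeks of age, lasted 4 weeks in normocapnia (room air) or hypercapnia (10% CO2 per the methods), and ended with collection at 16 weeks. The methods place the sort 3 days after cardiotoxin, a toxin that destroys muscle fibers, whereas the labels give no injury and the title of the deposited table carries 40 h, so the time point is not settled. The growth protocol gives C57/B6 littermates, while the genotype label counts up from C57BL/6 in NC1 to C57BL/12 in HC4. GFP marks cells that expressed Pax7 when tamoxifen was given and stays on in their progeny. The labels do not say that each library is a separate mouse, so p-values measure the spread between libraries. HC1 with HC2 and HC3 with HC4 were far closer than any other pair of libraries. A count of n = 4 in hypercapnia may therefore overstate the number of independent samples.

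In the Leloir pathway, galactose is converted to its alpha form, phosphorylated, and exchanged with UDP-glucose to give UDP-galactose and glucose 1-phosphate. UDP-glucose is made from glucose 1-phosphate and UTP, and is the donor for glycogen and for glucosylated proteins and lipids. Its oxidation gives UDP-glucuronate and then UDP-xylose, which build the glycosaminoglycan chains of the matrix around muscle fibers and satellite cells.

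Promoter sequence was available for 5 of the 6 genes, in 7 windows, from RefSeq on GRCm38.p6. The first windows of the 2 middle enzymes of galactose entry and of the enzymes that make and oxidize UDP-glucose are shown, since Galt and Galk1 share a motif that few promoters hold, while the levels of Ugp2 and Ugdh lay in opposite directions. Each line gives the 250 bases before the annotated start, 5′ to 3′ on the gene's own strand. Capitals mark matches on either strand to the GC box, whose letters are GGGCGG, to the box that is named after its letters CCAAT, and to the E-box of the form CACGTG.
Galk1, chr11:116012720-116012969, minus strand: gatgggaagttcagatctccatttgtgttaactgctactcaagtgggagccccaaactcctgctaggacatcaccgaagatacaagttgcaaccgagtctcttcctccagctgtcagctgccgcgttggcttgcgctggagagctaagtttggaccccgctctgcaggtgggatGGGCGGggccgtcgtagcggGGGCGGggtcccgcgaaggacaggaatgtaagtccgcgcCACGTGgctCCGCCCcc
Galt, chr4:41755267-41755516, plus strand: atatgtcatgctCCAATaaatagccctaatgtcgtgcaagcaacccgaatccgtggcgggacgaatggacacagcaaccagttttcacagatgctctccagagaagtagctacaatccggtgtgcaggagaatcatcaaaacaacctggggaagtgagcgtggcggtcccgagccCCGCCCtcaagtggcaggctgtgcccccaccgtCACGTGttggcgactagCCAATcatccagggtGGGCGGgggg
Ugp2, chr11:21371268-21371517, minus strand: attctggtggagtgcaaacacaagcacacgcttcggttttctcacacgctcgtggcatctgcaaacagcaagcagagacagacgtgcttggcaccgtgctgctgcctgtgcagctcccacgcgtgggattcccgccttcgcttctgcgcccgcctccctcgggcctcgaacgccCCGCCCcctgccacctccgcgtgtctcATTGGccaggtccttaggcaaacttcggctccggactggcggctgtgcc
Ugdh, chr5:65435843-65436092, minus strand: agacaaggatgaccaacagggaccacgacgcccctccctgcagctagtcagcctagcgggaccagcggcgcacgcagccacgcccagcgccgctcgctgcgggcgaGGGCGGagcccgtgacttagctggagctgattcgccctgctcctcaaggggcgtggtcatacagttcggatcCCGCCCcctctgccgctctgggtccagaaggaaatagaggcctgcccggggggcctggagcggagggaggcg

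The E-box began 17 bases before the start in Galk1 and 42 bases before it in Galt, and 6.02% of all 32851 windows of this length held one. It was in no other window of the set. GC boxes were found in the first window of each of the 5 genes, from 1 in Ugp2 to 3 in Galk1, against 32.7% of all windows. The 7 windows were 56.4% to 73.6% G and C, above the median of 52.4% over all windows. A CCAAT box was found in Galt and Ugp2, against 33.8%. AP-1 sites (TGACTCA, in 4.46% of windows) and TATA boxes (TATAAA, in 12.4%) were in none of the 7 windows. CCACG, the short end of the endoplasmic reticulum stress element, in 28.3% of windows, occurred in the first windows of Galk1, Galt, Ugp2 and Ugdh, and both matches in Galk1 overlap its E-box. A match is a stretch of letters, not a bound site.

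Libraries held 14527445 to 23388710 reads, and a gene of the set had between 89 and 4081 reads in a library. Levels are reads scaled to a common library total (RPM) from 1 amplicon per gene, so they are compared between libraries and not between genes. NC3 stood apart, with a mean correlation of 0.866 with the other libraries against 0.901 to 0.936 for the rest, and was the lowest of the 7 libraries for 49.5% of the 8229 genes whose mean reached 10 RPM. Pax7 ran from 4.34 to 268 RPM in normocapnia and from 20.1 to 79.5 RPM in hypercapnia, while Lyz2 of macrophages ran from 8354 to 29108 and from 13410 to 16728 RPM. NC3 had the lowest satellite sum and the highest macrophage sum, and NC1 had the reverse. Xist was at 445 to 701 RPM in NC1, NC2, HC1 and HC2, whereas NC3, HC3 and HC4 had it at 0.125 RPM or less and expressed the Y-linked Ddx3y at 103 to 206 RPM, so sex can be read for each library and 1 male library stands in normocapnia. The lowest count of a member was Galm in NC3, 89 reads or 6.13 RPM, with an exact 95% Poisson interval of 4.92 to 7.54 RPM that covers counting error only.

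Of the 6 genes, 2 were higher and 1 was lower in hypercapnia at the study's thresholds, an unadjusted p under 0.05 and a fold above 1.5 in limma. Over all genes 2.57% passed them (1.43% higher, 1.14% lower), and 5.54% of genes at 10 RPM or more. The groups did not overlap for 4 of the 6, against 9.62% of genes at 10 RPM or more. Because this contrast chose the genes, nothing is read from these counts. After Benjamini-Hochberg adjustment no gene of the table passed 0.05 in limma, where 1114 had an unadjusted p under 0.05, or in edgeR, and 29 did in DESeq2. In limma 8 passed without NC1 and 1 without NC3.

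**Figure D1:**
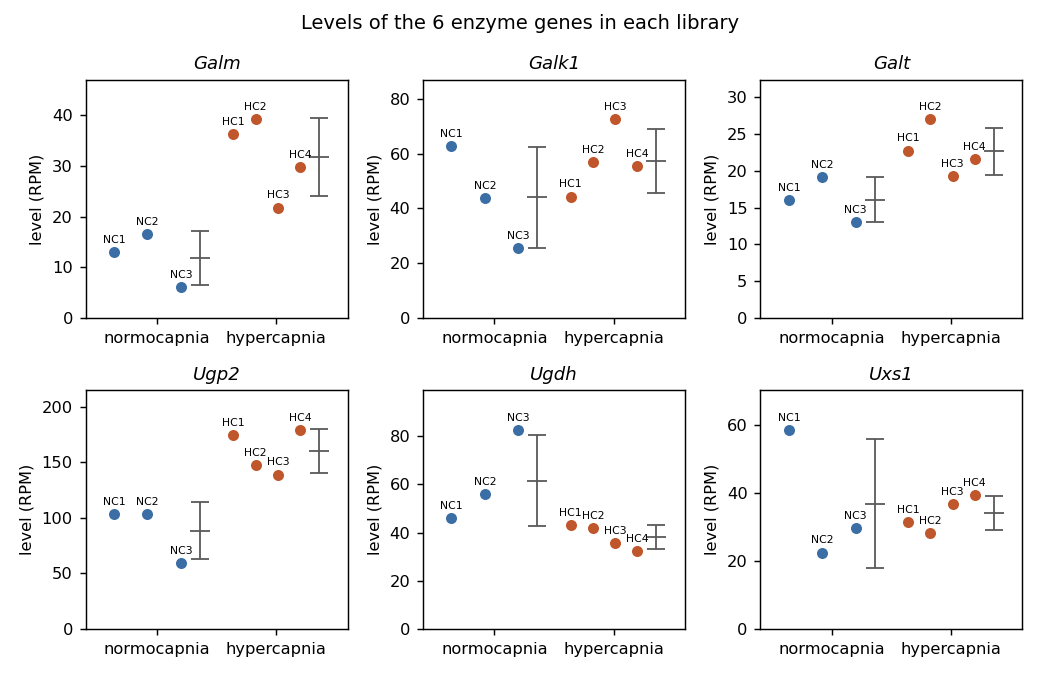
Level of each of the 6 enzyme genes in RPM (vertical axes, from 0) in 3 normocapnia (blue) and 4 hypercapnia (orange) libraries, 1 point per library, with the group mean and SD as a grey bar at the right of the points. The groups are separate for Galm, Galt, Ugp2 and Ugdh (for Galt with NC2 at 19.155 and HC3 at 19.243 RPM) and overlap for Galk1 and Uxs1.

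Galactose entry began with the largest difference of the set. Galm encodes galactose mutarotase, which turns beta-galactose into the alpha form that the kinase accepts. Its level was 13.0, 16.6 and 6.13 RPM in the 3 normocapnia libraries (in the order NC1, NC2, NC3, as below), against 36.3, 39.1, 21.8 and 29.7 RPM in the 4 hypercapnia libraries (HC1 to HC4). The lowest hypercapnia library lay above the highest normocapnia library. The means were 11.9 ± 5.31 (SD, n = 3) and 31.8 ± 7.72 RPM (n = 4), a log2 fold change of 1.41 (SE 0.37) on the log2(RPM + 1) scale, which ranked 180 from the top among the 8229 genes at 10 RPM or more.

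Galk1 encodes galactokinase, which phosphorylates alpha-galactose. Its level was 62.6, 44.0 and 25.7 RPM in normocapnia and 44.3, 56.9, 72.4 and 55.5 RPM in hypercapnia. NC1 exceeded all hypercapnia libraries but HC3, so the groups overlapped, and the log2 fold change of 0.44 (SE 0.33) was close to its own error. Galt encodes the uridylyltransferase that is lost in classic galactosemia. It was at 16.1, 19.2 and 13.0 RPM in normocapnia and at 22.7, 26.9, 19.2 and 21.5 RPM in hypercapnia. NC2 and HC3 were nearly equal, 19.155 against 19.243 RPM, a gap inside the exact 95% Poisson intervals of both (17.42 to 21.01 and 17.15 to 21.52 RPM), so that the order of these libraries is not established. The log2 fold change was 0.47 (SE 0.16), a fold of 1.39.

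Other enzymes next to this route lie outside the set. Phosphoglucomutases connect glucose 1-phosphate with glucose 6-phosphate. RefSeq gives the symbols Pgm1 and Pgm2 as synonyms of each other's gene in the mouse, so which of these enzymes each of the rows measures is not settled. The row named Pgm1 was at 42.5, 50.7 and 12.7 RPM against 85.9, 76.0, 52.5 and 58.8 RPM. Its groups were apart in RPM and overlapped after median-of-ratios scaling. The difference of 1.12 (SE 0.51) did not pass the unadjusted threshold, was 0.52 without NC3, and passed in 6 of 17 alternatives (DESeq2, both edgeR fits, quantile normalization, sex as a term, and without NC2). Galk2, which prefers N-acetylgalactosamine, had a log2 fold change of 0.42 (SE 0.33), which ran from 0.17 without NC1 to 0.70 without NC3. The row named Pgm2 had 0.93 (SE 0.78), with 0.11 without NC3 and 1.76, past the thresholds, without NC1, and Pgm2l1 had -0.04 (SE 0.39). The groups overlapped for each of these last genes.

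Ugp2 encodes UDP-glucose pyrophosphorylase, the enzyme that makes UDP-glucose. Its level was 103.2, 103.6 and 59.3 RPM in normocapnia against 174.7, 148.0, 139.1 and 179.1 RPM in hypercapnia. All 4 hypercapnia libraries were above all 3 normocapnia libraries, and NC1 and NC2 were almost equal. The log2 fold change was 0.88 (SE 0.23), from means of 88.7 ± 25.5 (SD, n = 3) and 160.2 ± 19.6 RPM (n = 4).

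Ugdh encodes UDP-glucose dehydrogenase, which commits UDP-glucose to glucuronate, and was the one member lower in hypercapnia at the thresholds. Its level was 46.1, 56.1 and 82.5 RPM in normocapnia against 43.0, 41.8, 35.7 and 32.3 RPM in hypercapnia. The groups did not overlap, NC1 and HC1 being nearest to each other, and NC3 lay far above the other libraries. The log2 fold change was -0.64 (SE 0.22), a fold of 1.56 that lies close to the threshold of 1.5. Uxs1, whose product decarboxylates UDP-glucuronate to UDP-xylose, was at 58.6, 22.5 and 29.8 RPM in normocapnia and at 31.5, 28.4, 36.9 and 39.4 RPM in hypercapnia. Normocapnia held both its highest and its lowest library, and the log2 fold change was -0.01 (SE 0.34). The highest, NC1, was also the library with the highest satellite sum (4215 RPM) and myofiber sum (4411 RPM). After median-of-ratios scaling Uxs1 was at 46.85 in NC1 and at 43.25 in NC3, the library where both sums were lowest. The part of cell makeup in the level of Uxs1 was not tested.

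**Figure D2:**
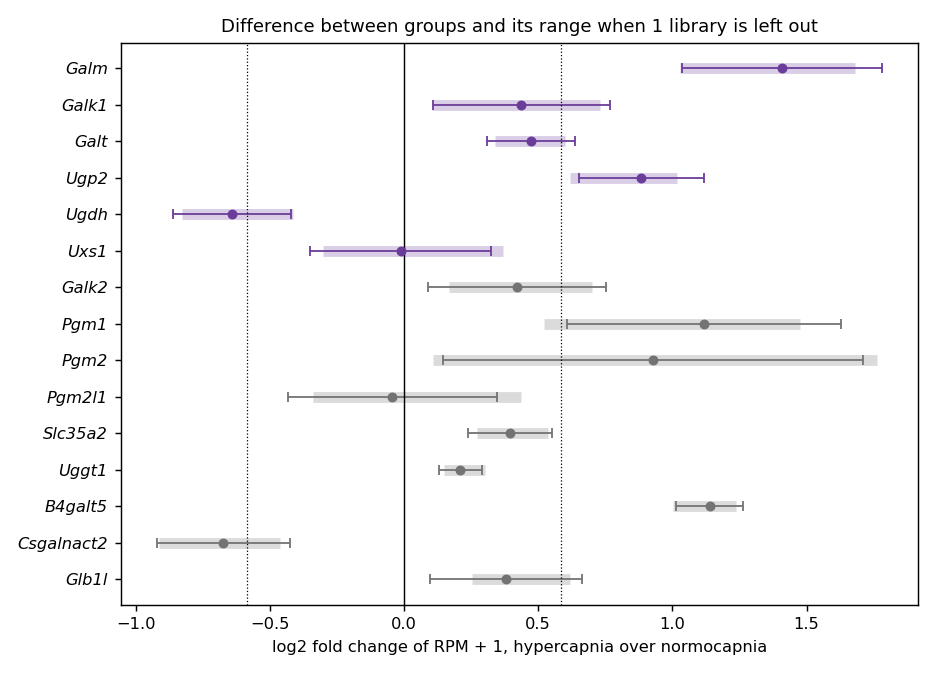
Log2 fold change of RPM + 1, hypercapnia over normocapnia (horizontal axis), for the 6 enzyme genes (purple) and the 9 related genes named in the text (grey). Points are estimates with bars of 1 SE, pale bands span the values when each of the 7 libraries is left out in turn, and dotted lines mark a fold of 1.5 in either direction. The bands of Galm and Ugp2 stay above the upper dotted line, while those of Uxs1 and Pgm2l1 cross 0.

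Galm and Ugp2 stayed past the thresholds, and higher in hypercapnia, under all 17 alternative analyses, with log2 fold changes between 1.03 and 1.68 and between 0.62 and 1.02. The lowest values of both came from leaving out NC3. Ugdh stayed lower in all 17 but passed the thresholds in 8, and without NC3 its log2 fold change was -0.41. It also did not pass without NC2 (-0.69), HC3 (-0.61) or HC4 (-0.57). Galk1 and Galt kept their sign in all 17, but Galk1 ran from 0.10 without NC3 to 0.73 without NC1. On the RPM scale the 12504 genes whose mean reached 1 RPM had a median log2 fold change of 0.16. With median-of-ratios scaling, where that median was 0.04, the log2 fold changes were 1.28 for Galm, 0.74 for Ugp2, 0.34 for Galt, 0.30 for Galk1, -0.15 for Uxs1 and -0.78 for Ugdh. After that scaling 2 of the 6 genes, Galm and Ugp2, had groups that did not overlap, against 9.1% of genes at 10 RPM or more. The scaled level of Ugdh was 36.8, 57.4 and 119.7 in normocapnia against 43.9, 43.6, 31.9 and 28.6 in hypercapnia, so NC1 then fell inside the hypercapnia range.

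Read within sex, Galm was higher in hypercapnia among the 4 Xist-expressing libraries (difference 1.30 in log2) and among the 3 with Y-linked transcripts (1.89). Ugp2 was higher by 0.63 and 1.40, and Galt by 0.47 and 0.61. Ugdh differed by -0.26 and -1.26. Since the groups of these genes were already apart in RPM over all 7 libraries, they had to be apart within each sex, and only the sizes are given. Galk1 did not follow, with -0.06 among the Xist-expressing libraries, where the groups overlapped, and 1.27 among the others. Uxs1 was -0.28 and 0.35. The second value of each pair rests on NC3 alone in normocapnia, and the difference between the sexes was not tested. With sex as a term, limma gave 1.54 (SE 0.20) for Galm, 0.53 (SE 0.10) for Galt, 0.94 (SE 0.21) for Ugp2 and -0.66 (SE 0.24) for Ugdh.

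Ratios between members do not depend on how a library is scaled. The pair Ugp2 and Ugdh is shown because its levels lay in opposite directions, so its ratio restates those levels free of scaling and adds no separate evidence. The ratio of Ugp2 to Ugdh, in RPM, was 2.24, 1.85 and 0.719 in normocapnia against 4.07, 3.54, 3.89 and 5.55 in hypercapnia. The lowest hypercapnia ratio was above the highest normocapnia ratio, and NC3 had the lowest ratio of the 7 libraries. The mean log2 ratio was 0.52 ± 0.88 (SD, n = 3) in normocapnia and 2.07 ± 0.28 (n = 4) in hypercapnia. The ratio of Galm to Ugdh was apart as well (difference 2.15 in log2), whereas the ratios of Galt, Ugp2 and Galm to Galk1, of Ugp2 to Galt and of Uxs1 to Ugdh overlapped between the groups. Since a ratio of 2 amplicons depends on both, its value shows unequal change and not which gene changed.

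**Figure D3:**
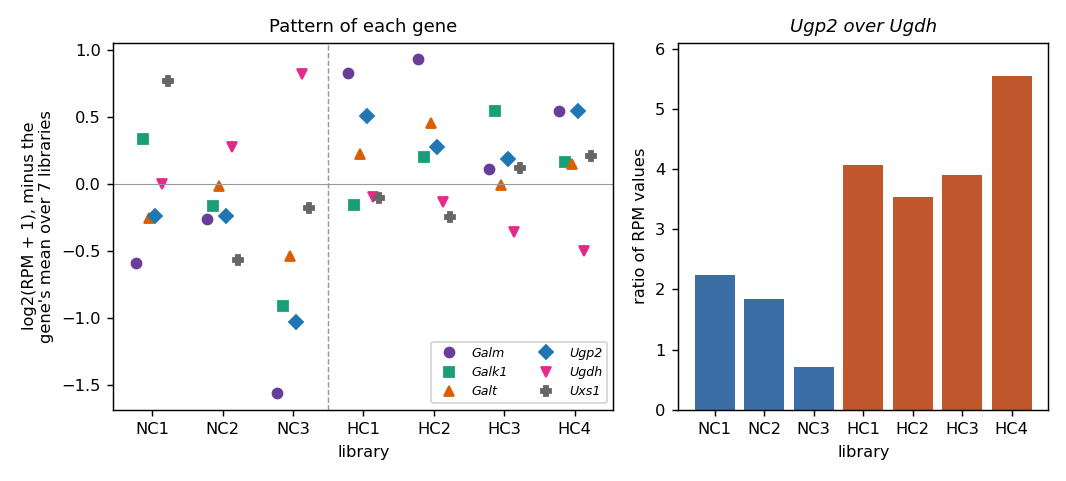
Left, log2(RPM + 1) of each gene minus its mean over the 7 libraries (vertical axis) for each library (horizontal axis), 1 symbol per gene, with a dashed line between normocapnia and hypercapnia. Right, the ratio of Ugp2 to Ugdh in RPM, as bars from 0, blue for normocapnia and orange for hypercapnia. NC3 holds the lowest Galm, Galk1, Galt and Ugp2 and the highest Ugdh, and the ratio runs from 0.719 in NC3 to 5.55 in HC4.

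Across the 7 libraries Galm moved most closely with Galt (Pearson r = 0.973 on log2(RPM + 1)) and with Ugp2 (0.953). Within the 4 hypercapnia libraries Galm and Galt still had r = 0.914, HC2 being highest and HC3 lowest for both, while Galm and Ugp2 had 0.412. Ugp2 and Ugdh had r = -0.916, which was -0.742 without NC3 and -0.127 within the hypercapnia libraries. Galk1 had r of 0.525 to 0.674 with Galm, Galt and Ugp2, which became -0.27 to -0.07 without NC3. These are descriptions over 7 points that share the group difference, and NC3 in particular.

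The within-group spread was larger in normocapnia for all 6 genes, with coefficients of variation of 19.1% to 51.6% against 12.3% to 24.3% in hypercapnia. The same order held for 88.3% of genes at 10 RPM or more. Without NC3 it held for 3 of the 6 and for 68.3% of those genes.

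Among 8223 other genes at 10 RPM or more, the closest in pattern to Galm over the 7 libraries were Aldh2, the mitochondrial aldehyde dehydrogenase (r = 0.993), Trpm2, a cation channel (0.991), and Rufy1, an endosomal protein (0.990). Galt was closest to Abcc3, an organic anion transporter (0.992), Becn1, a core autophagy gene (0.989), and Lsm10 of histone mRNA processing (0.987). Galk1 was closest to Cad, the enzyme that opens pyrimidine synthesis (0.986), Tspan4 and the splicing factor Sf3b3 (both 0.983). Ugp2 was closest to Mina (0.984), Nbas (0.981) and Dpp3 (0.973). Ugdh was closest to Dnajb14, a cochaperone of the endoplasmic reticulum (0.994), Mdfic (0.986) and Clint1 (0.979), and Uxs1 to Sh3glb1 (0.996), Zfp266 (0.990) and Lrrc17 (0.989). These are the highest values found among 8223 genes over 7 libraries, and nothing on shared control is read from them.

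Beyond the set, 72 of 74 listed genes around these sugars were in the table, and 2 passed the thresholds (2.78%), 1 higher and 1 lower, with a median log2 fold change of 0.25. The median over all genes was 0.02, and over genes at 10 RPM or more 0.13. Of 4 other enzymes beside the Leloir route (Galk2, Pgm1, Pgm2 and Pgm2l1) none passed. Of 6 SLC35 family transporters none passed, the smallest p being that of Slc35a2, which carries UDP-galactose into the Golgi (log2 fold change 0.39, SE 0.16). After median-of-ratios scaling the log2 fold change of Slc35a2 was 0.26 (SE 0.22). Of 10 genes of glycogen building and glucosylation, most of which use UDP-glucose, none passed either. Uggt1, which reglucosylates misfolded glycoproteins, had a log2 fold change of 0.21 (SE 0.08), and 0.07 (SE 0.27) after median-of-ratios scaling.

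Among 16 genes of galactosylation, most of which use UDP-galactose, 1 passed, higher in hypercapnia. It was B4galt5, which makes lactosylceramide, at 47.1, 51.2 and 36.6 RPM in normocapnia and at 95.9, 92.8, 103.0 and 106.6 RPM in hypercapnia. The 4 hypercapnia libraries were close to each other and all above the normocapnia libraries. The log2 fold change was 1.14 (SE 0.12, limma adjusted p = 0.351), and over the 17 alternatives the adjusted p ran from 0.0258, in DESeq2, to 0.944, in limma without HC1.

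Among 29 genes that build glycosaminoglycan and other glucuronate- or xylose-bearing chains, 1 passed, lower in hypercapnia. Not all of them use UDP-glucuronate or UDP-xylose. The one that passed, Csgalnact2, starts chondroitin sulfate chains by adding N-acetylgalactosamine and so draws on another sugar nucleotide. It was at 67.8, 98.7 and 127.2 RPM in normocapnia and at 56.9, 49.0, 73.7 and 59.2 RPM in hypercapnia. HC3 lay above NC1, so the groups overlapped, and the log2 fold change was -0.67 (SE 0.25, limma adjusted p = 0.915). NC3 was highest for it as for Ugdh, and was highest for 19.7% of genes at 10 RPM or more. Without NC3 the log2 fold change of Csgalnact2 was -0.46 and no longer passed. Nor did it pass without NC2 (-0.65), HC1 (-0.66), HC2 (-0.59) or HC4 (-0.68), with a minimum mean of 1 RPM, or with median-of-ratios or quantile scaling. None of the 7 genes that release galactose passed. The log2 fold change of Glb1l, the smallest p among them, was 0.38 (SE 0.28), and without HC3 it was 0.62 and passed the thresholds.

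**Figure D4:**
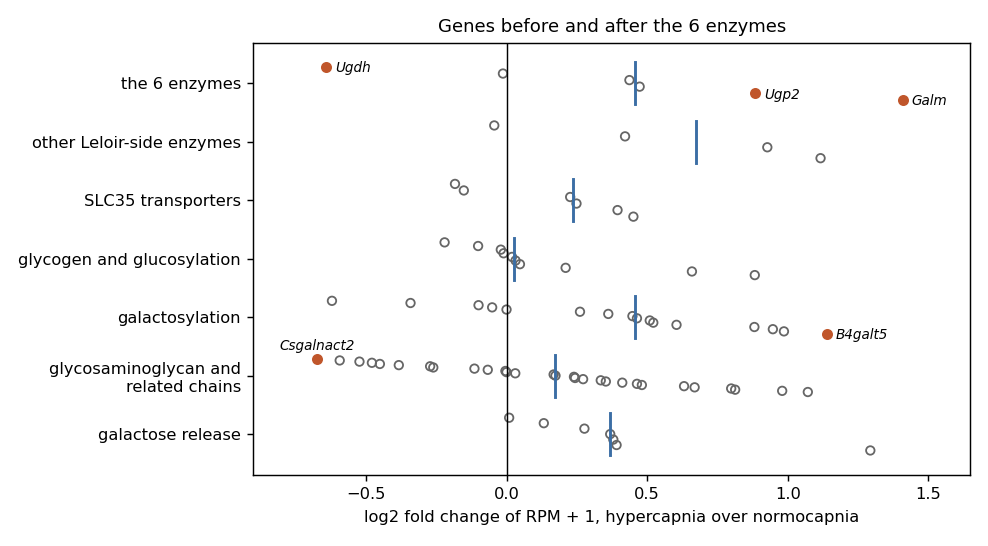
Log2 fold change of RPM + 1, hypercapnia over normocapnia (horizontal axis), for the 6 enzyme genes and the 6 lists of related genes (rows), 1 point per gene. Filled, named points passed an unadjusted p under 0.05 and a fold above 1.5, open points did not, and blue lines mark the median of each row, which runs from 0.03 for glycogen and glucosylation to 0.67 for the other Leloir-side enzymes.

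The sorted cells were not a pure population by their transcripts. Summed markers ran from 595 to 4215 RPM in normocapnia and 779 to 1642 RPM in hypercapnia for 10 satellite cell genes, and from 12273 to 35012 and 20102 to 25007 RPM for 11 macrophage genes. In each list the normocapnia range covered the hypercapnia range, with 0 of 10 and 1 of 11 genes past the thresholds. Sums of the other lists overlapped between groups too, at 64.8 to 289 RPM for neutrophils, 45.5 to 491 RPM for endothelial cells, 935 to 2230 RPM for fibroadipogenic cells, 239 to 4411 RPM for myofibers and 0.351 to 3.05 RPM for lymphocytes. In RPM, Galm, Galt and Ugp2 were lowest and Ugdh was highest in NC3, the library with the most macrophage and the least satellite transcript. After median-of-ratios scaling this held for Galm and Ugdh only. Galt (12.8 in NC1, 18.9 in NC3) and Ugp2 (82.5 and 86.0) were then lowest in NC1, the library of the opposite makeup. The part of cell makeup in the levels of the 6 genes was not tested, and in these bulk libraries fewer cells of a type and less RNA per cell cannot be told apart.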

How the data were processed

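RNA from sorted Pax7-GFP cells was measured with an Ion AmpliSeq mouse transcriptome panel on an Ion GeneStudio S5 Plus. The authors deposited 1 table of RPM, reads scaled to a common total assigned to the panel, for 7 libraries; they analysed it with the Transcriptome Analysis Console. The aligner is not given in the sources used here, nor is the build. Whole reads were recovered from the deposited RPM steps for 100% of values within 0.05 reads, giving 14527445 to 23388710 reads a library. No pair of libraries agreed within sampling noise, so none was counted as a duplicate. By chi-square over degrees of freedom of the reads, the closest pairs were HC1 with HC2 (22.5) and HC3 with HC4 (26.0). The next closest pair, HC1 with HC4, was at 98.5, so the hypercapnia libraries were not equally distinct from each other.

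Groups were taken from the labels. Hypercapnia was compared with normocapnia by limma 3.58.1 (R 4.3.3) on log2(RPM + 1), fitted to all 23930 genes with no filter, and genes were called at an unadjusted p under 0.05 and a fold above 1.5, with Benjamini-Hochberg values beside. The fits were tested on simulated data. Alternatives were pseudocounts of 0.1 and 5 RPM, a minimum mean of 1 RPM, median-of-ratios and quantile scaling, edgeR 4.0.16 and DESeq2 1.42.0 on the recovered reads (edgeR with TMM, with and without a filter), the replicate number as a block, leaving out each library, and, chosen after seeing the data, sex (Xist above or below Ddx3y) as a term.

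The members, related lists, markers, motifs and tests were chosen with earlier results of these data known. Named are all 6 members, all other Leloir-side enzymes, of each other list the genes called or, with none, the smallest p, and for each member the 3 genes of highest Pearson correlation among those whose mean reached 10 RPM. A listed gene is not reported here, and list counts leave it out. Akr1b3 and B3galt2 were not found by symbol. Promoter windows came from RefSeq (GRCm38.p6) and were searched on both strands.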

Additional observations from a re-analysis of the deposited data

How the results depend on the processing

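Over 17 alternatives the number of the 6 enzyme genes past the thresholds was 2 or 3. The number among all genes was 615, against 1304 in DESeq2, 1049 in edgeR without a filter, 1210 with sex as a term (the last chosen after seeing the data) and 376 (without HC2) to 1990 (without NC1) when 1 library was left out; it was 385 without HC1 and 1205 without NC2. Of the related genes 2 passed, against 7 in DESeq2, 5 in edgeR with a filter, 4 in edgeR without, 4 under either rescaling (median-of-ratios or quantile), 1 with the replicate block, and 1 to 12 when a library was left out, 12 without NC1, 4 without NC3 and 1 without each of HC1, HC2 and HC4. The cause of these moves was not tested.

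Ugdh did not pass with the filter, median-of-ratios scaling, quantile normalization, edgeR with a filter, the replicate block, or without NC2, NC3, HC3 or HC4. Csgalnact2 did not pass with the filter, either rescaling or the replicate block, or without NC2, NC3, HC1, HC2 or HC4. Galt passed without NC2 alone. Uxs1 ran from -0.30 to 0.37 when a library was left out and was above 0 without HC1, HC2 or NC1. Pgm2l1 ran from -0.34 to 0.43, and was above 0 without NC3. Uggt1 was -0.0045 in DESeq2. With median-of-ratios scaling the genes called split into 315 higher and 295 lower, with quantile normalization into 336 and 357, in DESeq2 into 519 and 785, without NC1 into 1495 and 495 and without NC3 into 235 and 381, against 343 and 272.

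Replicate numbers did not pair the libraries, since deviations of NC1 and HC1, NC2 and HC2, and NC3 and HC3 correlated at -0.35, 0.50 and -0.04. With the replicate block 598 genes and 2 of the 6 passed, and HC4, alone in its number, added nothing to that fit. Each of the 6 genes had at least 89 reads in every library, and 3 libraries were compared with 4. What limits the precision of the differences was not tested.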
